A study of Homo sapiens with 6 samples.

Results

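The FAT and Dachsous giant cadherins were described here in SH-SY5Y cells, an established line from a human neuroblastoma, through every probe set annotated to exactly 1 of 7 symbols: *FAT1*, *FAT2*, *FAT3*, *FAT4*, *DCHS1*, *DCHS2* and *FJX1*. These were 11 of the 45278 probe sets with 1 gene symbol, and 7 of 18244 genes. The genes were picked with results of these arrays in view: *FAT1* because it differed between replicate numbers, and *DCHS1* because it differed between treatments with a small unadjusted p. The differences of the members by treatment and by replicate number are therefore given as descriptions, with standard errors and no test of their own. The study hybridised 6 arrays, 3 from cells transfected with anti-miR-137 and 3 from cells transfected with a negative control anti-miR, and asked which mRNAs change when miR-137 is inhibited. Both oligonucleotides were given at 15 pM with a lipid reagent 24 hours after seeding, and RNA was taken 72 hours after transfection. All 6 samples share the cell line, the medium with fetal bovine serum and the transfection itself; no untransfected cells were analysed here. The replicates are numbered 1 to 3 in both groups, and the labels do not say what a number stands for or whether replicates came from separate cultures, so spreads may be partly technical.

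FAT cadherins are very large single-pass membrane proteins whose outer part is a long chain of cadherin repeats. In Drosophila, Fat binds the cadherin Dachsous on the neighbouring cell, and the Golgi kinase Four-jointed phosphorylates the cadherin repeats of both and so tunes their affinity; the system orients cells within a sheet and feeds into the Hippo growth pathway. In mammals FAT4 and DCHS1 form the receptor and ligand pair most like the fly proteins, and inherited loss of either causes a syndrome with misplaced cortical neurons. FAT1 organises actin at cell edges through Ena/VASP proteins and restrains the Hippo effector YAP1. FJX1 is the vertebrate relative of Four-jointed.

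The sequence that defines the treatment is that of mature miR-137, shown because the anti-miR is directed against it (RefSeq, build GRCh38.p14, chr1:98046091-98046113, minus strand). The capitals mark the seed, bases 2 to 8, with which a microRNA pairs to its target mRNAs.
hsa-miR-137-3p: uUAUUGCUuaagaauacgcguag
Promoter windows of 300 bases around a gene's start were found in RefSeq for 4 of the 7 genes, *FAT1* with 2 starts, *FAT2*, *DCHS2* and *FJX1*. The upstream window of *FAT1*, whose probe set was among the brightest on the arrays, and that of *FAT2*, whose probe set was below the filter on dim signals, are shown 5′ to 3′ on the minus strand. The capitals mark the motifs searched on both strands: GGAATG (bound by TEAD factors, the partners of YAP1), TGACGTCA (the cAMP response element), CACGTG (an E-box) and GGGCGG (a GC box), none of which overlapped another in these windows.
*FAT1*, chr4:186726647-186726946: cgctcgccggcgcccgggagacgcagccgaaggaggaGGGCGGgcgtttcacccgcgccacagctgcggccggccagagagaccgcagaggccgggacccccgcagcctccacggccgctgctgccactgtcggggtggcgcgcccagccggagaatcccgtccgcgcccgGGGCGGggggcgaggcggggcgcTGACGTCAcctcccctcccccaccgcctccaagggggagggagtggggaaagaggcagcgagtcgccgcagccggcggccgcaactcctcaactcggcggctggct
*FAT2*, chr5:151591282-151591581: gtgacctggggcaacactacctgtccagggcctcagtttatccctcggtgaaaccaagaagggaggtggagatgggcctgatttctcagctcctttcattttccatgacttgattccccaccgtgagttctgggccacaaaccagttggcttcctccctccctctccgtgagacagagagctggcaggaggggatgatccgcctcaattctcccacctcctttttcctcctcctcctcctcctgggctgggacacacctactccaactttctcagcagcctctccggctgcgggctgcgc
The *FAT1* window held 40 CpG dinucleotides and the *FAT2* window 7, against a median of 14 over 35116 such windows. The *FAT1* window had 1 cAMP response element, which 1.85% of all windows hold, and 2 GC boxes, which 45.0% hold. The other *FAT1* start (chr4:186723807-186724106) had 41 CpG dinucleotides and 4 GC boxes. The *FJX1* window (chr11:35618210-35618509) had 31 CpG dinucleotides, 1 E-box, found in 7.26% of windows, and 3 GC boxes. The *DCHS2* window had 25 CpG dinucleotides and 3 GC boxes. A link between these windows and the signals was not tested. The TEAD motif, present in 14.0% of windows, matched in none of the 5 windows of these genes.

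Levels are log2 signals per probe set after RMA, a method that corrects background and makes the distributions of arrays alike, and 1 unit is a 2-fold difference. Each probe set has its own affinity, so levels are compared between arrays and not between genes. The median signal of an array lay between 6.39 and 6.43, and RNA integrity numbers lay between 9.5 and 9.8. Of 13 markers of sympathetic neuroblastoma, 11 were tested and all had signals of 8.28 or more, with *HAND2* at 13.97 and *DBH*, the enzyme that makes noradrenaline, at 12.7. Of 10 mesenchymal markers 7 were tested, with signals between 6.16 (*NT5E*) and 13.5 (*VIM*), and *PRRX1*, *COL1A2* and *CD44* were below the filter on dim signals. The 3 tested of 5 endothelial markers lay between 6.18 and 6.32. No probe set with 1 symbol was named for miR-137, so its inhibition was not checked.

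A probe set was kept where its mean over the 6 arrays reached 5.69, the 40th percentile. Of the 11, 5 were kept, 1 each for *FAT1*, *FAT4*, *DCHS1*, *DCHS2* and *FJX1*, and 6 were not. *FAT2*, a paralogue known from cerebellar granule cells, and *FAT3*, known in mice for shaping the dendrites of retinal amacrine cells, had no kept probe set, so 5 of the 7 genes were tested among 12639. The kept probe sets of *FAT1*, *FAT4*, *DCHS1* and *DCHS2* carry a suffix that marks a match to more than 1 transcript. The mean signal of the *FAT1* probe set was at percentile 94.4 of all probe sets and those of the other 4 between 41.5 and 59.2, which describes probe sets and does not rank the genes by expression.

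**Figure D1:**
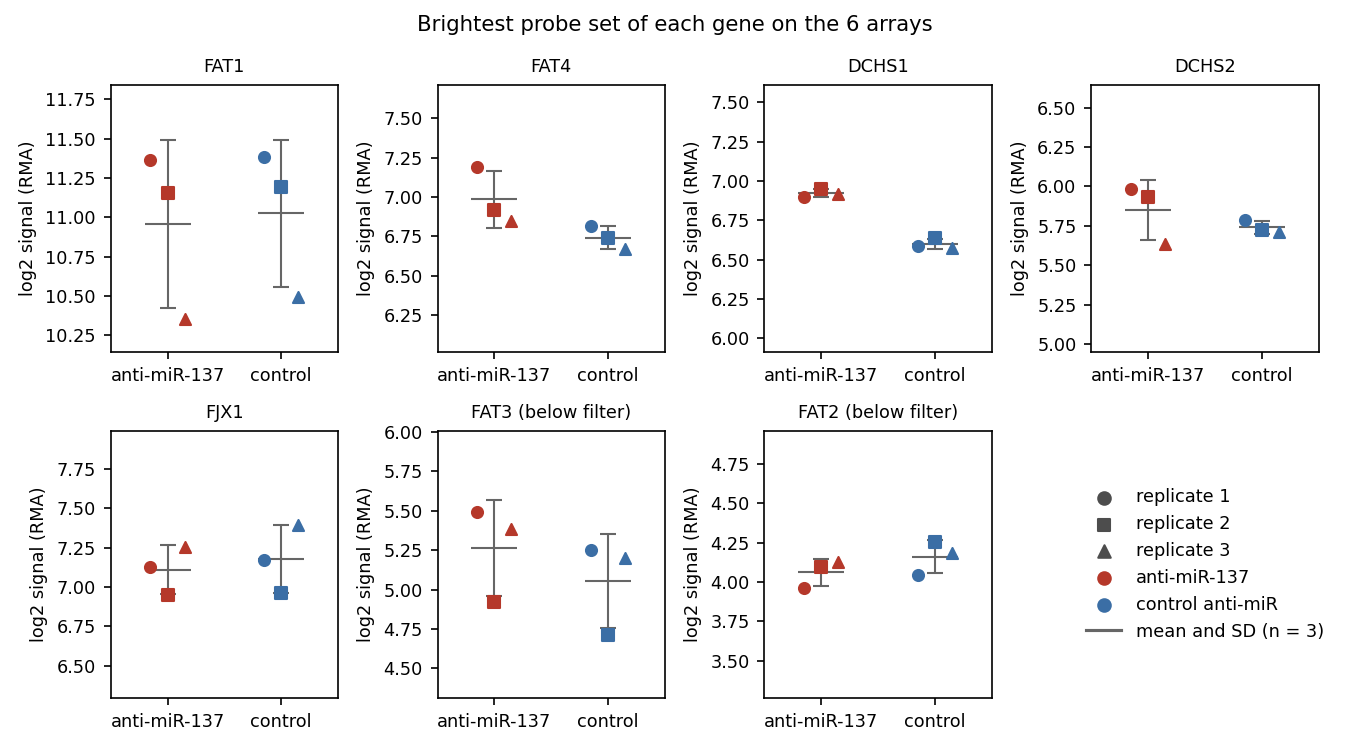
Log2 RMA signal (vertical axes, all spanning the same range) of the brightest probe set of each gene on the anti-miR-137 (red) and control (blue) arrays; symbols give the replicate number, bars the mean and SD of 3 arrays. *DCHS1* and *FAT4* lie higher on all anti-miR-137 arrays than on any control array, while both replicate 3 arrays of *FAT1* lie at 10.36 and 10.50, below the other 4.

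Anti-miR-137 and control cells were compared first for the ligand and receptor pair. *DCHS1*, the ligand, had signals of 6.90, 6.95 and 6.92 in anti-miR-137 replicates 1 to 3, against 6.58, 6.63 and 6.58 in the control replicates. The groups did not overlap, and the gap between them was several times the spread within either. Anti-miR-137 cells averaged 6.92 ± 0.026, against 6.60 ± 0.032 for control cells (SD over 3 arrays in both cases). The log2 difference was 0.33 with a limma standard error of 0.055, or 1.25-fold. Within replicate numbers 1, 2 and 3 the difference was 0.32, 0.32 and 0.34. *DCHS1* had the second smallest treatment p of the 12639 genes, which is why it was picked.

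*FAT4*, the receptor of DCHS1, had signals of 7.19, 6.91 and 6.85 in anti-miR-137 replicates 1 to 3, against 6.82, 6.74 and 6.67 in the control replicates. The groups did not overlap here either, though the lowest anti-miR-137 value was close to the highest control value. The log2 difference was 0.24 with a standard error of 0.098, or 1.18-fold (6.98 ± 0.18 with anti-miR-137, against 6.74 ± 0.074 with the control, SD over 3 arrays). It rested in part on anti-miR-137 replicate 1: without that array, which had the lowest RNA integrity number (9.5), it was 0.14, and with that number as a covariate it was 0.12. The same array had the highest mean of 7 tested mesenchymal markers, 0.21 log2 units over their 6-array means, against -0.12 and -0.076 in anti-miR-137 replicates 2 and 3 and -0.048 to 0.038 in the controls; the part of this in the *FAT4* value was not tested, and in bulk RNA more cells of a type cannot be told apart from more RNA per cell. The other *FAT4* probe set was below the filter and did not show the difference in each number, with -0.11, -0.017 and 0.45 in replicates 1 to 3.

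The glial and endothelial marker lists also had higher means on every anti-miR-137 array than on any control array, while the mesenchymal and epithelial lists overlapped between the groups. The mean of the 4 tested of 7 glial and Schwann markers stood at 0.030, 0.064 and 0.044 log2 units from their 6-array means in anti-miR-137 replicates 1 to 3, against -0.0088, -0.046 and -0.083 in the control replicates. That of the 3 endothelial markers stood at 0.0077, 0.11 and 0.20 in anti-miR-137 replicates 1 to 3, against -0.045, -0.070 and -0.21 in the control replicates. By gene, 2 of the 4 glial markers (*GFAP* at 0.20 and *OLIG2* at 0.27) and all 3 endothelial markers had higher values with anti-miR-137, and none was called by treatment. *S100B* (-0.035) and *SOX10* (-0.069) were lower. *OLIG2*, at a mean of 5.88, and the endothelial markers were dim, and dim genes leaned toward higher values with anti-miR-137, as given below. The endothelial markers *CDH5* and *TEK* had no kept probe set. The part of these markers in the *DCHS1* and *FAT4* values was not tested.

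The share of genes that differ this way in the whole table puts these values in context. The 2 groups did not overlap for 2 of the 5 kept members, both with higher values in anti-miR-137 cells, while 4.19% of the 12639 genes did so in that direction and 3.16% in the other. Since treatment values chose *DCHS1*, nothing is read from that count. No tested gene passed limma at an adjusted p under 0.05, 0% of 12639, and the adjusted p in limma was 1.00 for each member, with 335 genes (2.65%) at an unadjusted p under 0.05. *DCHS1*, *FAT4* and *DCHS2* lay among the dimmest 20% of tested genes, as did *OLIG2*, *SOX10* and the tested endothelial markers. Of those dim genes 64.3% were higher with anti-miR-137 than with the control, at a median log2 difference of 0.038, against 0.0033 over all tested genes. The part of signal level in the values of these genes was not tested.

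*DCHS2*, a paralogue of DCHS1, had 4 probe sets. The kept one had signals of 5.99, 5.93 and 5.63 in anti-miR-137 replicates 1 to 3, against 5.79, 5.72 and 5.71 in the control replicates. The anti-miR-137 array was higher in replicates 1 and 2 and lower in replicate 3, and the groups overlapped. The log2 difference of 0.11 had a standard error of 0.098 and was 0.022 with the RNA integrity number as a covariate. Dropping 1 anti-miR-137 array at a time gave 0.041, 0.069 and 0.22 for replicates 1, 2 and 3. The 3 dimmer probe sets differed by 0.18, 0.15 and -0.016.

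*FJX1*, the Four-jointed relative, had signals of 7.13, 6.95 and 7.26 in anti-miR-137 replicates 1 to 3, against 7.17, 6.96 and 7.39 in the control replicates. The anti-miR-137 array was slightly lower in each number, and the groups overlapped over most of their range. The log2 difference of -0.065 had a 95% confidence interval of -0.36 to 0.23. Its sign turned, to 0.016 and 0.044, when anti-miR-137 replicate 2 or control replicate 3 was dropped, and it was -0.17 when control replicate 2 was. *FAT1* had signals of 11.37, 11.15 and 10.36 in anti-miR-137 replicates 1 to 3, against 11.39, 11.19 and 10.50 in the control replicates. Same-numbered arrays lay close together, and the spread between numbers was far larger than any gap between treatments. The *FAT1* difference of -0.066 log2 units therefore had a wide interval, -0.78 to 0.65. Within replicate numbers 1, 2 and 3 it was -0.020, -0.039 and -0.14, and with replicate number as a term it was also -0.066. The leave-out fits held no such term, so dropping 1 array left the replicate numbers unequal between the groups. Leaving out control replicate 1, control replicate 2 or anti-miR-137 replicate 3 turned the sign of the *FAT1* difference, with values of 0.11, 0.018 and 0.24. Leaving out anti-miR-137 replicate 1, anti-miR-137 replicate 2 or control replicate 3 gave -0.27, -0.16 and -0.33, and the RNA integrity number as a covariate gave -0.26.

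Below the filter, *FAT3* had signals of 5.49, 4.92 and 5.39 in anti-miR-137 replicates 1 to 3, against 5.25, 4.71 and 5.20 in the control replicates. The groups overlapped, yet the anti-miR-137 array was higher in each number, by 0.24, 0.21 and 0.19. *FAT2* had 3.96, 4.09 and 4.13 in anti-miR-137 replicates 1 to 3, against 4.04, 4.25 and 4.18 in the control replicates, and was lower in each number. Of all 11 probe sets, 5 had the anti-miR-137 array higher in every number and 4 had it lower in every number. Over the 45278 probe sets, 15.1% were higher in every number and 11.7% lower. Nothing is read from the counts of the 11 probe sets. *DCHS1* was picked for its treatment difference, *DCHS2* alone gives 4 of the probe sets, and the numbers were not taken as pairs.

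**Figure D2:**
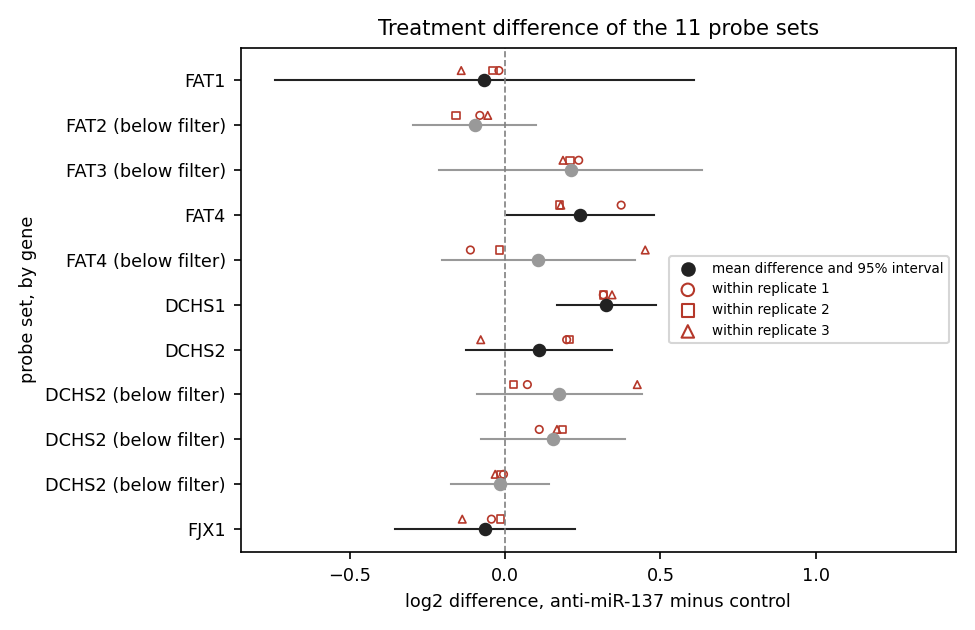
Log2 difference, anti-miR-137 minus control (horizontal axis), of each of the 11 probe sets, with the 95% interval of limma over all 45278 unfiltered probe sets (lines) and the differences within replicate numbers (open symbols); grey marks probe sets below the filter. *DCHS1* has the narrowest spread within numbers among the kept ones, 0.32 to 0.34, and *FAT1* the widest interval.

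Replicate numbers were compared next, over the 2 arrays of a number, with treatment as a term in limma. *FAT1* averaged 10.43 in replicate 3 and 11.17 in replicate 2, against 11.38 in replicate 1. Both replicate 3 arrays lay below the other 4 arrays, in anti-miR-137 and control cells alike. The log2 difference was -0.95 between replicate 3 and replicate 1 (standard error 0.064), so that the *FAT1* signal in replicate 3 was 0.518 of that in replicate 1. It was -0.75 between replicates 3 and 2, and -0.20 between replicates 2 and 1. Of the 12639 genes 9 had a more negative difference between replicates 3 and 1, and 99.8% had a smaller SD over the 6 arrays. This size is what *FAT1* was picked for.

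The F test of limma over the replicate number called 320 genes (2.53%) at an adjusted p under 0.05, and 1 of the 5 kept members, *FAT1*, was among them; since it was picked for this difference, nothing is read from that. Without anti-miR-137 replicate 1, control replicate 1, anti-miR-137 replicate 3 or control replicate 3 the count over all genes was 0, and without control replicate 2 it was 540. With each of the 27514 kept probe sets tested on its own, 3 (0.0109%) were called, and that of *FAT1* was not among them. The size of the *FAT1* difference changed little, between -1.01 and -0.89 over all 15 alternatives with a value. *FAT1* was not called with no filter or with the RNA integrity number as a covariate. Whether *FAT1* was called describes the settings and tests nothing, since it was picked for this difference. Genes of DNA replication moved the other way between the same arrays: 36 tested G1/S genes stood on average 0.29 and 0.25 above their 6-array means in the anti-miR-137 and control arrays of replicate 3, against -0.18 and -0.27 in those of replicate 1. The part of this in the *FAT1* difference was not tested.

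The other members followed different patterns. *FJX1* averaged 7.33 in replicate 3 and 6.96 in replicate 2, against 7.15 in replicate 1. Its difference was 0.37 between replicates 3 and 2, opposite in sign to that of *FAT1*, and 0.18 between replicates 3 and 1, and the lowest array of each treatment was replicate 2. *FAT3*, below the filter, was also lowest in replicate 2, where it averaged 4.81, against 5.29 in replicate 3 and 5.37 in replicate 1. *FAT4* averaged 6.76 in replicate 3, against 7.002 in replicate 1, a difference of -0.24, and *DCHS2* differed by -0.21; without anti-miR-137 replicate 1 both differences were -0.15, and that of *DCHS2* was -0.073 when only anti-miR-137 replicate 3 was dropped and -0.35 when only control replicate 3 was. *DCHS1* was the flattest, with 0.0051 between replicates 3 and 1 and at most 0.051 in size between any pair of numbers. The median over all tested genes was -0.012 between replicates 3 and 1, and 5% of genes lay below -0.32 and 5% above 0.33.

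**Figure D3:**
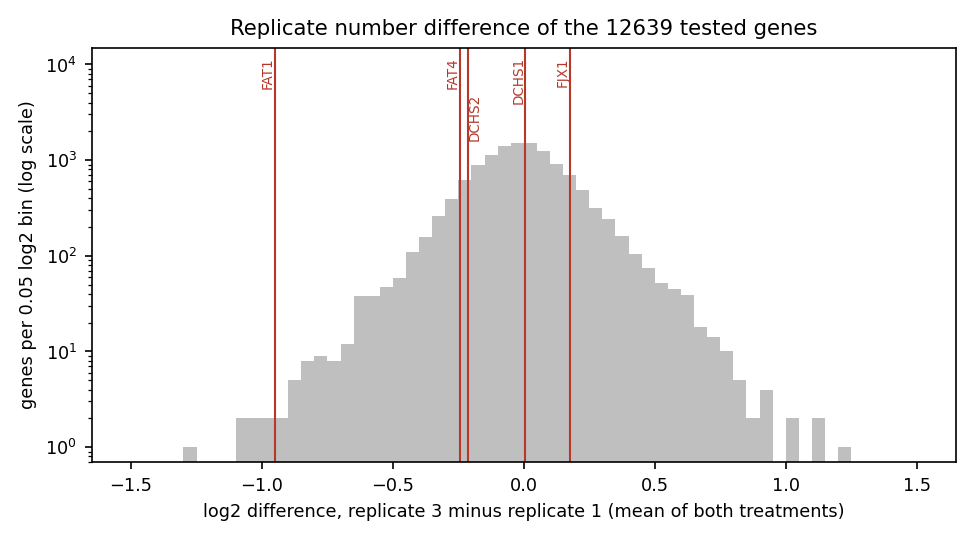
Number of tested genes (vertical axis, log scale) by log2 difference between replicate 3 and replicate 1, averaged over both treatments (horizontal axis); red lines mark the 5 kept members. *FAT1* lies at -0.95 in the outer left tail, and *FAT4* (-0.24), *DCHS2* (-0.21), *DCHS1* (0.0051) and *FJX1* (0.18) lie in the body of the distribution.

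Genes of pathways linked to these cadherins, and other cadherins with catenins, were taken from 5 lists chosen with earlier results of these data known. The lists share 5 tested genes and held 72 tested genes in all. None was called by treatment, against 0% of all tested genes; 3 had an unadjusted p under 0.05 in limma. By values, 35 were higher and 37 lower in anti-miR-137 cells, with a median log2 difference of -0.0083, against 0.0033 over all tested genes. The groups did not overlap for 6 of the 72 (8.33%), 1 higher and 5 lower, against 7.36% of all tested genes. The 1 higher gene, *HOMER2*, passed the filter only through its anti-miR-137 arrays. By replicate number 3 of the 72 (4.17%) were called in limma, against 2.53% of all tested genes. That count was 0 without any 1 of the 4 arrays of replicates 1 and 3, and 5 without control replicate 2.

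In the planar polarity list, which holds the core proteins that align cells in a sheet, 18 of 19 genes were tested, 5 with higher and 13 with lower values, a median of -0.038. *WDPCP*, a ciliary planar polarity effector, had signals of 5.75, 6.10 and 6.05 in anti-miR-137 replicates 1 to 3, against 6.13, 6.39 and 6.44 in the control replicates. Its groups did not overlap, and its log2 difference was -0.35 (standard error 0.12, adjusted p = 1.00 in limma). *PRICKLE3* differed by 0.21. By replicate number 1 of the 18 was called: *INTU*, a partner of WDPCP in cilium assembly, was lower by 0.53 log2 units in replicate 3 than in replicate 1 (difference -0.53, adjusted p = 0.037 in limma). *PRICKLE1*, a core polarity gene, differed by 0.59 and was not called (adjusted p = 0.053 in limma).

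Of 17 partners of the FAT tails, 15 were tested, 7 with higher and 8 with lower values, a median of -0.0094, and none was called in either comparison. *HOMER2*, a scaffold of the family that binds FAT1, had the largest difference at 0.27. Its signals were 5.72, 5.84 and 6.02 in anti-miR-137 replicates 1 to 3, against 5.65, 5.51 and 5.60 in the control replicates. The mean was 5.86 with anti-miR-137 and 5.59 with the control. *HOMER2* therefore reached the filter of 5.69 only through its anti-miR-137 arrays, and nothing is read from its difference. *LIX1L* differed by 0.11 between treatments. *VASP*, through which FAT1 reaches actin, was highest in replicate 2: it differed by 0.34 between replicates 2 and 1, by -0.20 between replicates 3 and 2, and by 0.13 between replicates 3 and 1. *HOMER1* differed by 0.29 between replicates 3 and 1.

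In the Hippo core, the kinase cascade below these cadherins, 18 of 21 genes were tested, 8 with higher and 10 with lower values, a median of -0.022. *LIMD1*, a LIM protein that holds back the LATS kinases, had signals of 7.14, 7.22 and 7.19 in anti-miR-137 replicates 1 to 3, against 7.34, 7.39 and 7.52 in the control replicates. Its groups did not overlap, at a log2 difference of -0.23 (standard error 0.068, adjusted p = 1.00 in limma), and *TAOK2* differed by 0.077. By replicate number 1 of the 18 was called: *FRMD6*, an upstream activator of the cascade, had 10.26 and 10.16 in the anti-miR-137 and control arrays of replicate 3, against 10.69 and 10.68 in those of replicate 1 (difference -0.48, adjusted p = 0.047 in limma). *AJUBA*, a LIM protein like LIMD1, differed by -0.41 and was not called (adjusted p = 0.058 in limma).

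Of 21 YAP and TEAD effectors and targets, 15 were tested, 10 with higher and 5 with lower values in anti-miR-137 cells, a median of 0.017. *TEAD3* differed by 0.15 and *ARHGEF17* by 0.16, with overlapping groups. By replicate number 1 of the 15 was called: *YAP1* itself had 7.23 and 7.52 in the anti-miR-137 and control arrays of replicate 3, 7.45 and 7.56 in those of replicate 2, and 8.05 and 7.995 in those of replicate 1. The difference between replicates 3 and 1 was -0.65 (adjusted p = 0.048 in limma), in the same direction as that of *FAT1*, but *YAP1* had most of its step between replicates 1 and 2, at -0.52, where *FAT1* differed by -0.20. *BIRC5*, which is both a YAP target and a gene of dividing cells, differed by 0.44 (adjusted p = 0.053 in limma).

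Of 26 mainly classical cadherins and catenins, 11 were tested, 6 with higher and 5 with lower values, a median of 0.025, and none was called in either comparison. The groups did not overlap for *CDH24*, a difference of -0.093, and *CDH22* differed by 0.16. *CDH11*, a mesenchymal cadherin, and *CDH23*, a cadherin of inner ear hair bundles, had the smallest replicate number p, with differences of -0.51 and -0.47 between replicates 3 and 1 (adjusted p = 0.061 and 0.067 in limma). The G1/S list, too, was chosen with earlier results of these data known, so its share of called genes is a description. In it 17 of 36 tested genes (47.2%) were called by replicate number, against 2.53% of all tested genes. All 17 were higher in replicate 3 than in replicate 1. None was called without any 1 of the 4 arrays of replicates 1 and 3, or with the RNA integrity number as a covariate, where no gene of the table was. Each of those fits leaves 1 residual degree of freedom, fewer than the main fit, and the part of RNA quality was not tested. The median difference of the list was 0.48, against -0.012 over all tested genes; *UHRF1* differed by 0.78 and *GINS3* by 0.75 (adjusted p = 0.033 for both in limma). By treatment *RPA2* (-0.11) and *PRIM1* (0.13) had its smallest p and none was called.

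**Figure D4:**
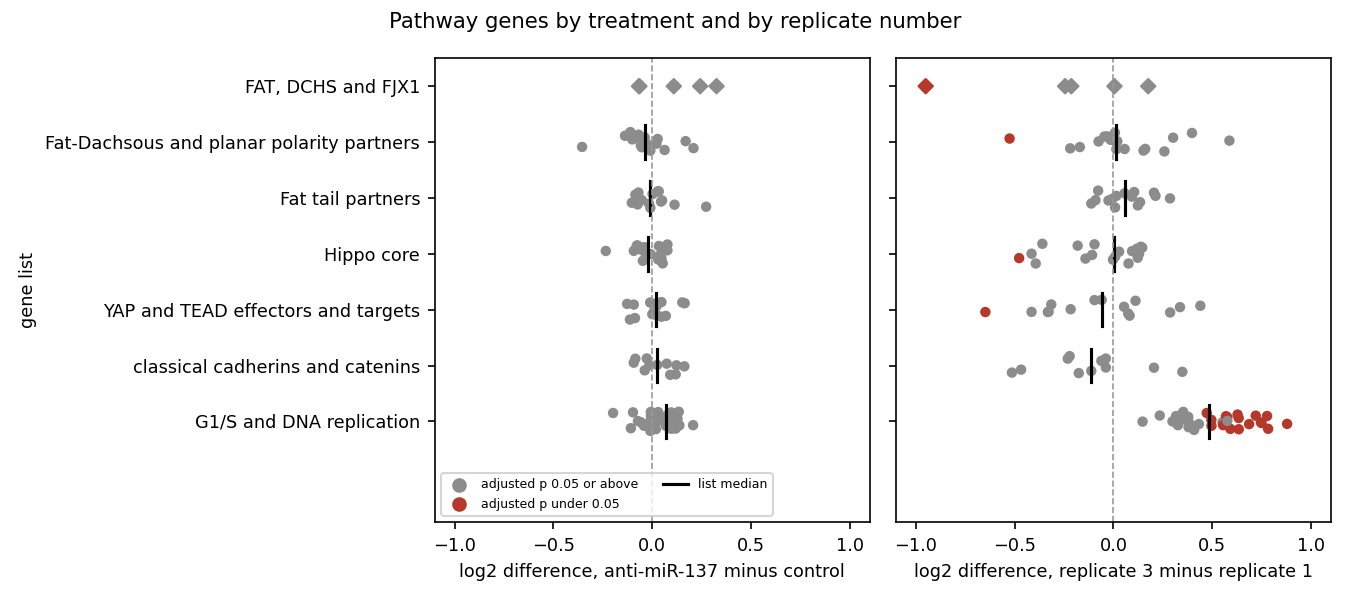
Log2 differences between anti-miR-137 and control (left) and between replicates 3 and 1 (right) of the tested genes of each list (points, jittered vertically) with the list median (black bars); red marks an adjusted p under 0.05 in limma, which for *FAT1* is a description since it was picked by that difference. No point is red by treatment, and by replicate number 17 G1/S genes, *FAT1*, *INTU*, *FRMD6* and *YAP1* are.

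The genes whose 6 array values most resembled those of *FAT1* were found by the root mean square difference between values centred on their own means. They were *LRP4*, the agrin receptor of the neuromuscular junction (0.067 log2 units), *N4BP2L1* (0.079), *PHLDA1* (0.086), the proneural transcription factor *NEUROG2* (0.094) and *FLRT1*, a leucine-rich repeat adhesion protein (0.10). All 5 were lower on both replicate 3 arrays than on any other array. *LRP4* had 8.02 and 8.05 in the anti-miR-137 and control arrays of replicate 3, 8.63 and 8.69 in those of replicate 2, and 8.95 and 8.87 in those of replicate 1. The 5 differed between replicates 3 and 1 by -1.02 to -0.77.

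For *DCHS1* the closest were *OLIG2*, a transcription factor of the oligodendrocyte lineage (0.039), the transcription factor *SOX13* (0.042), *GDF15*, a stress cytokine (0.045), the receptor *TNFRSF14* (0.047) and *LOC613206* (0.048). All 5 had higher values on each anti-miR-137 array than on any control array, by 0.26 to 0.36 log2 units in the mean, with an adjusted p in limma of 1.00 throughout. Like *DCHS1* they were dim, with means of 5.88 to 6.79. Likeness here is over 6 arrays that share their preparation, and genes were searched over the whole table. That the genes found share the pattern of *FAT1* or *DCHS1* follows from this search, and nothing is read from it.

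**Figure D5:**
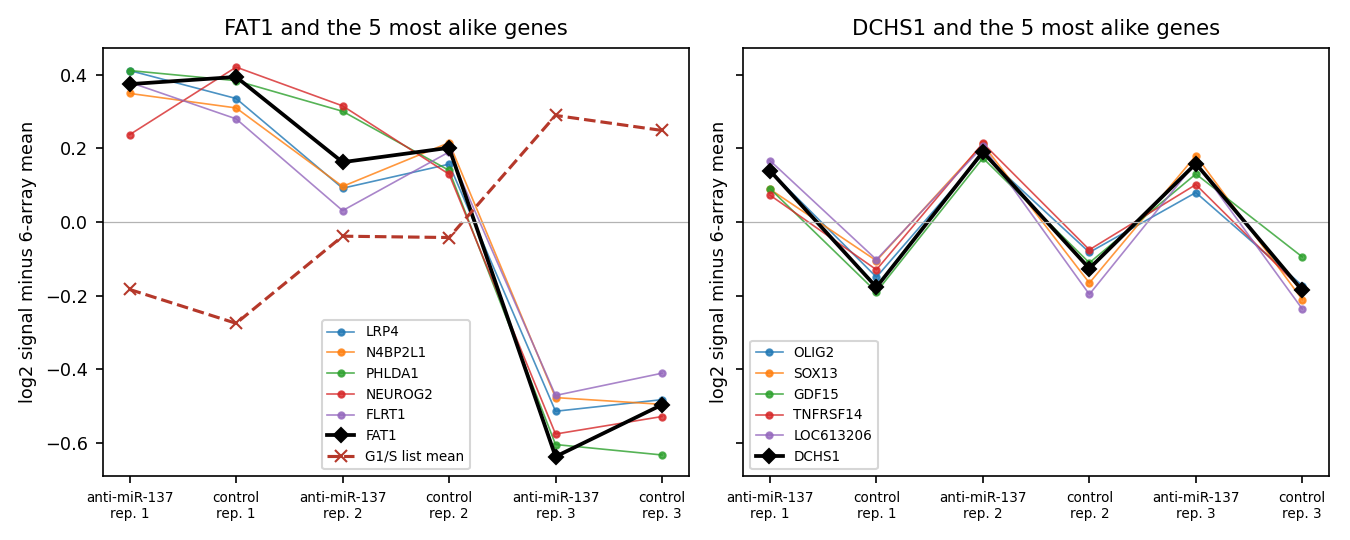
Log2 signal minus the 6-array mean (vertical axes) on each array (horizontal axes) for *FAT1* (left, black), *DCHS1* (right, black) and the 5 most alike genes of each (coloured); the dashed red line is the mean of the 36 G1/S genes. *FAT1* and its 5 drop on both replicate 3 arrays, where the G1/S mean stands at 0.29 and 0.25, and *DCHS1* and its 5 are higher on each anti-miR-137 array than on any control array.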

How the data were processed

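Expression was measured on 6 one-colour arrays. Per the submitters' processing notes the authors processed them with RMA in R 3.0.1. What they deposited are log2 signals per probe set; RMA removes any change common to all transcripts. Control probe sets (102) were left out, and only probe sets with 1 symbol in the platform annotation were used; RefSeq gene identifiers changed 0 symbols. Probe sets below the 40th percentile of mean signal were removed, and a gene was its brightest kept probe set. Treatment was tested with limma 3.58.1 in R 4.3.3 (lmFit, eBayes, group as the only term), and replicate number with its moderated F test and group as a term, adjusted after Benjamini-Hochberg over every tested gene (threshold 0.05). Both were tested on simulated data with 200 genes changed by 1 log2 unit among 12639, of which 93.7% were recovered by treatment and 67.3% by replicate number. On average 9.8 and 2.8 genes not changed in that comparison were also called. The treatment difference of *DCHS1* was 0.33, and 5% of tested genes lay above 0.14. Simulated noise was independent between arrays. The shares recovered therefore do not tell how often changes of the size seen here would be called. The members and lists were chosen with earlier results of these data known. Named besides the members were, per list, the 2 genes with the smallest p in each comparison, and the 5 genes most like *FAT1* and *DCHS1*. The number of arrays limits precision. Gene coordinates are not given, since the annotation ties none to the probe sets. No pair of arrays across the groups held the same values: root mean square differences ran between 0.128 and 0.239 log2 units.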

Additional observations from a re-analysis of the deposited data

How the results depend on the processing

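By treatment, 0 genes and 0 probe sets were called under every alternative run (16 and 15, leave-outs included, range 0 to 0), while genes at an unadjusted p under 0.05 numbered 169 to 1091. Deviations from the group means correlated at 0.55, 0.073 and 0.65 between the arrays of replicates 1, 2 and 3, and since replicate 2 was not over 0.1 the numbers were not taken as pairs; with the replicate block 0 genes and 0 probe sets were called (815 and 1648 at an unadjusted p under 0.05). Anti-miR-137 replicate 2 correlated best with control replicate 1 (0.16). By root mean square difference each anti-miR-137 array lay closest to the control array of its own number, at 0.128, 0.163 and 0.136 for replicates 1 to 3. Anti-miR-137 replicate 2 lay at 0.176 and 0.199 from control replicates 1 and 3. The 2 measures differ for replicate 2, so no other pairing is read from them. Whether the numbers are pairs is left undecided. The replicate number counts for genes (320), probe sets (3) and the 5 pathway lists (3) depended on the setting. They were 2, 0 and 0 with no filter, 1099, 1735 and 13 with the filter at the 60th percentile, 1797, 3128 and 14 with a trended prior, 637, 663 and 9 with array weights, 0, 0 and 0 with the RNA integrity number, and 526, 598 and 5 without a group term. Without probe sets that may cross-hybridise 96 probe sets were called, and the lists gave 5 with quantile normalization and 5 with median centring. Leaving out 1 array gave 0 to 540 genes, 0 to 1392 probe sets and 0 to 5 list genes. Of 144 member values under alternatives, 8 turned their sign and 6 lost their call, all 6 for the *FAT1* difference between replicates 3 and 1. The treatment difference of *FAT1* turned to 0.11, 0.018 and 0.24 without control replicate 1, control replicate 2 and anti-miR-137 replicate 3 (leave-out range -0.33 to 0.24). That of *FJX1* turned to 0.016 and 0.044 without anti-miR-137 replicate 2 and control replicate 3 (range -0.17 to 0.044). These leave-out fits held no replicate term, and both genes were lower with anti-miR-137 within each number. The *DCHS1* difference between replicates 3 and 1 turned to -0.0089, -0.0019 and -0.0088 with the RNA integrity number, without anti-miR-137 replicate 1 and without anti-miR-137 replicate 3 (leave-out range -0.0088 to 0.019). *DCHS1* by treatment stayed between 0.31 and 0.35. With the RNA integrity number *FAT4* was 0.12, *DCHS2* 0.022 and *FAT1* -0.26 by treatment. The stricter filter kept *FAT1* alone of the members, and without probe sets that may cross-hybridise *FJX1* alone was left. The causes were not tested. Fewer arrays leave 1 residual degree of freedom for the replicate number, and a lone array is then assumed to vary like the others. The RNA integrity number as a covariate also leaves 1, so the counts of 0 with it do not tell the part of RNA quality.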
